A study of Mus musculus with 12 samples.

Results

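The genes followed here carry or receive Wnt signals, and were read across 12 expression arrays of mouse embryonic stem cells. They number 10 of the 18193 genes named on the array: 3 Wnt ligands (Wnt3, Wnt8a and Wnt9a), the secreted enhancer Rspo3, 3 Frizzled receptors (Fzd2, Fzd5 and Fzd7), the receptor tyrosine kinases Ror1 and Ror2, and Dact1, an intracellular partner of Dishevelled. The genes were taken by name: a probe set counted where its annotated symbol was exactly one of the 10, which gave 19 probe sets of 45037. The probe set with the highest mean log2 signal over the 12 arrays stands for its gene, and the others serve as a check. For 9 of the 10 genes it was bright enough to be tested, as were 27022 of all probe sets; Wnt3 was not. The cells were the line D3, kept for 7 days in serum-containing medium in 4 conditions with 3 arrays each. LIF-free plus lithium cultures had no LIF and 50 nM lithium, LIF-free cultures had neither, LIF plus lithium cultures had LIF at 1000 units per ml and 50 nM lithium, and LIF cultures had LIF at 1000 units per ml alone. The labels name no feeder cells, transgene or mutation, and all arrays come from a single line. The series' design text speaks of 3 independent experiments per replicate without saying how they were combined, so whether each array is a separate culture is not known, and p-values measure the spread between these arrays.

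Wnt proteins are secreted lipid-modified ligands. They bind Frizzled receptors together with Lrp5 or Lrp6 to stabilise beta-catenin, or they bind Frizzled and Ror proteins to steer cell polarity and movement without it; Wnt5a acts through Ror1 and Ror2 in this second way. R-spondins such as Rspo3 raise the amount of Frizzled on the cell surface by withdrawing the ligases Znrf3 and Rnf43, and Dact proteins bind Dishevelled, which relays both branches. LIF keeps serum-grown mouse embryonic stem cells undifferentiated, and in the embryo Wnt3 and Wnt8a mark the posterior epiblast and primitive streak. Lithium inhibits GSK3 and is widely used to imitate a Wnt signal, mostly at millimolar levels, far above the concentration in these labels.

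The arrays were deposited as MAS5 signals, a summary of each probe set's brightness on a linear scale with every array scaled to one target. The 40th percentile of mean signal, 7.52, was the limit for testing, and a level near it is close to background. Median signal per array lay between 12.4 and 19.3 in LIF-free plus lithium, 13 and 16.6 in LIF-free, 10.5 and 16 in LIF plus lithium, and 14.2 and 17.5 in LIF arrays. All 10 embryonic stem cell markers listed were bright enough to be tested. Withdrawing LIF lowered 7 of the 10 in each comparison and raised 0 (8 and 0 in each with the replicate number added to the fit as a block). Of all tested probe sets, 3.91% were called lower without lithium and 4.93% with it (9.42% and 9.19% with the block). Their summed signal was 9775 to 14488 in LIF-free plus lithium and 22464 to 23632 in LIF plus lithium arrays, and 11913 to 14909 in LIF-free and 19355 to 30446 in LIF arrays. The Gapdh 3 prime to 5 prime ratio, a sign of RNA integrity, was 0.739 to 0.8 in LIF-free and 0.81 to 0.82 in LIF arrays, and 0.748 to 0.802 in LIF-free plus lithium and 0.798 to 0.86 in LIF plus lithium arrays. These Gapdh ranges overlapped with lithium and not without it. The same ratio of actin overlapped in both comparisons. It was 1.45 to 1.7 in LIF-free and 1.49 to 1.98 in LIF arrays, and 1.5 to 1.67 in LIF-free plus lithium and 1.56 to 1.98 in LIF plus lithium arrays. The part of these ratios in the changes was not tested.

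Without LIF, the Wnt9a, Rspo3, Fzd2, Ror1 and Dact1 transcripts were higher, in cultures with lithium and in cultures without it. Fzd5 was lower with lithium; without lithium 1 of its 2 probe sets passed, and both did in the fit with a replicate block. Fzd7 and Ror2 gave small differences that did not pass. In LIF-free against LIF cultures, limma called 5 of the 9 tested genes higher and 0 lower at an adjusted p under 0.05 (p-values adjusted by Benjamini-Hochberg over all 27022 probe sets), where 5.40% of all probe sets were called higher and 3.91% lower. In LIF-free plus lithium against LIF plus lithium cultures it called 5 higher and 1 lower, against 7.53% and 4.93% of all probe sets. The genes were chosen with earlier results of these data known, so these shares describe them and test nothing. The shares of all count every tested probe set, while each gene is read by its brightest. With the replicate number as a block, which suits the comparison without lithium because its same-numbered arrays deviated together, the calls were 5 higher and 1 lower without lithium, the added gene being Fzd5 (10.0% and 9.42% of all probe sets), and 5 and 1 with lithium (12.8% and 9.19%). The median log2 change of the 9 genes was 1.51 without lithium, where that of all tested probe sets was -0.07, and 1.13 with lithium, where that of all was 0.11. All 3 values without LIF lay above all 3 with LIF in 7 of the 9 genes and below them in 1 without lithium (13.8% and 13.7% of all probe sets), and in 5 and 1 with lithium (19.9% and 13.5%). The split of all calls depended on how arrays were scaled: 58.0% were higher without lithium as deposited and 83.1% after centring each array on its median, and with lithium 60.4% and 34.8%. Centring moved the median change of all probe sets to 0.125 without lithium and to -0.233 with it. None of the 5 and 6 calls changed sign after centring, and 1 of them, Wnt9a with lithium, no longer passed (log2 change 0.78, adjusted p = 0.154).

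**Figure D1:**
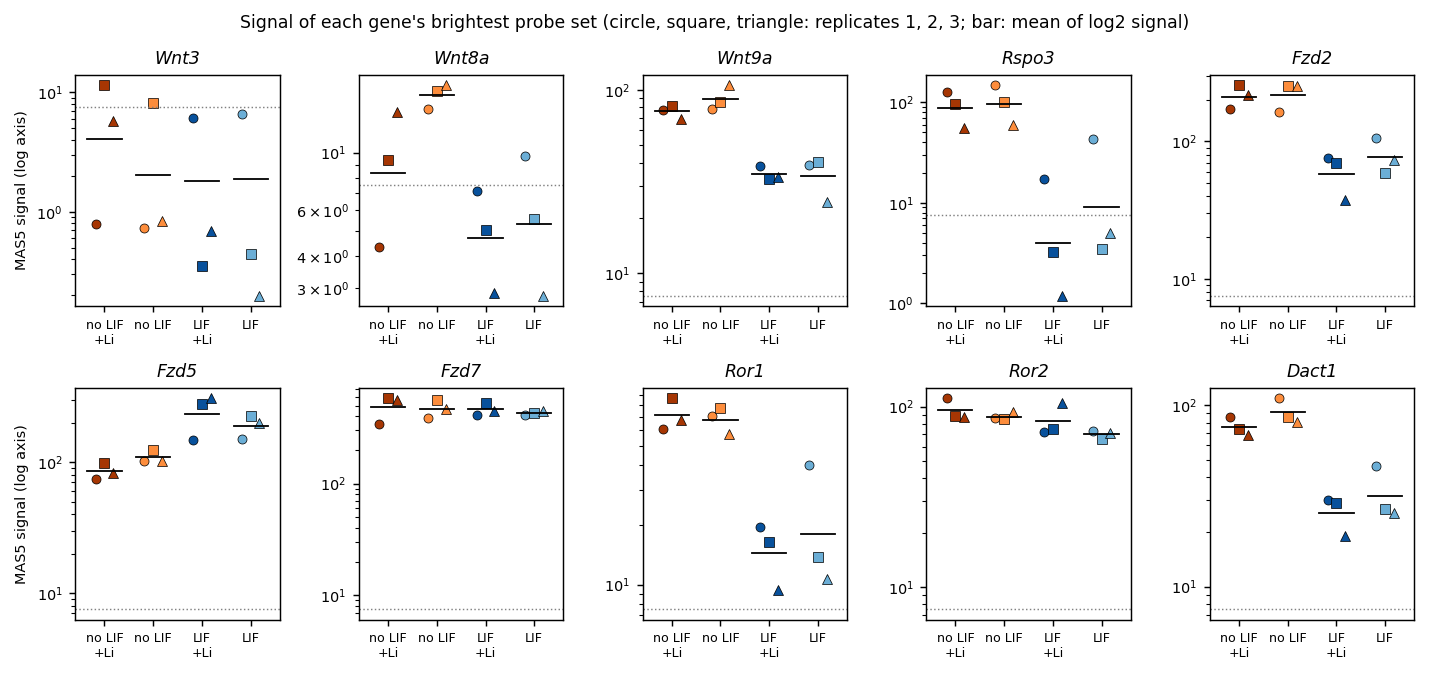
MAS5 signal (log axis) of the brightest probe set of each of the 10 genes in LIF-free plus lithium (no LIF +Li), LIF-free (no LIF), LIF plus lithium and LIF arrays; each mark is an array, the bar is the mean on the log2 scale with values under 1 set to 1, and the dotted line is the limit for testing (7.52). Wnt9a, Rspo3, Fzd2, Ror1 and Dact1 separate by LIF and not by lithium, Fzd5 separates in the opposite direction, and Wnt3 sits around or under the limit.

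The start regions of 3 genes that rose and of the one that fell are shown so that genes moving in opposite directions can be compared. Each runs from 250 bases before to 50 after the annotated start, 5′ to 3′ on the gene's own strand (RefSeq, GRCm38.p6), and capitals mark the GC box GGGCGG or its complement CCGCCC and, in Ror1, the TCF/LEF core CTTTGA read on the other strand (TCAAAG). The regions are chr11:59306680-59306979 (+) for Wnt9a, chr4:100095541-100095840 (+) for Ror1, chr12:71309634-71309933 (+) for Dact1 and chr1:64737701-64738000 (-) for Fzd5. For Wnt9a the start used is not the first base of the gene's span given below (59306849), which lies inside the region shown.
Wnt9a: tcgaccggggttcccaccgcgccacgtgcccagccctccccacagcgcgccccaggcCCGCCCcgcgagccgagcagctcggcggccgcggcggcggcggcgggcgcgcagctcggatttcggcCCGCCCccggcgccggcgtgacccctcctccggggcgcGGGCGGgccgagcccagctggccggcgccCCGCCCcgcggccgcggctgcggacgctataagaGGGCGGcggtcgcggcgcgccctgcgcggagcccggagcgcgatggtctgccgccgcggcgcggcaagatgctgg
Ror1: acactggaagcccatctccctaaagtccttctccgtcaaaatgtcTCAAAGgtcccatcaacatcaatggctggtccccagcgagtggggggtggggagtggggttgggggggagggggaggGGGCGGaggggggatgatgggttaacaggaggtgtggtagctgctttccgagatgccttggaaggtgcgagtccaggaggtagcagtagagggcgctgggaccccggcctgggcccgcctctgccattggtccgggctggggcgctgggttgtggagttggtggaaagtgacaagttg
Dact1: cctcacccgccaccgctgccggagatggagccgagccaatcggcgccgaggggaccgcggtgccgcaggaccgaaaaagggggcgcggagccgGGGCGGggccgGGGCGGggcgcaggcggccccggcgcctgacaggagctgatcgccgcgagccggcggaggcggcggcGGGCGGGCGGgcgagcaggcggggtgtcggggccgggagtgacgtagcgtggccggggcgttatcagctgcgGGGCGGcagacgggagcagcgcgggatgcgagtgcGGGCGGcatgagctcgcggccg
Fzd5: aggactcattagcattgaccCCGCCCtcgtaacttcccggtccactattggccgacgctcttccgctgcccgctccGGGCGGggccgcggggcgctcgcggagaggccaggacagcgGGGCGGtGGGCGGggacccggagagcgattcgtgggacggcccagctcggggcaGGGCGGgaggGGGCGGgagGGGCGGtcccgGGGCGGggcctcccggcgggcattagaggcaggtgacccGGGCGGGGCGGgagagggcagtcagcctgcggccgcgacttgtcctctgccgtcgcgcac
Of the 10 genes, 7 have such a region in the table used (Wnt3, Wnt9a, Fzd5, Fzd7, Ror1, Ror2 and Dact1). GC content was 83.3% in Wnt9a, 79.7% in Dact1, 62.3% in Ror1 and 75.7% in Fzd5, against a median of 52.7% over 32851 promoters. The GC box was found on either strand in 7 of 7, against 35.7% of all promoters; overlapping matches were counted separately, giving 5 in Wnt9a, 6 in Dact1, 1 in Ror1 and 10 in Fzd5. The TCF/LEF core, bound by the nuclear partners of beta-catenin, was found in 1 of 7, 205 bases before the start of Ror1, against 16% of all promoters. The motif TTCNNNGAA, to which STAT factors such as the LIF effector STAT3 bind, was found in 0 of 7, against 8.3% of all promoters. These are matches of letters within 300 bases, not tested binding sites.

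Among the ligands, Wnt9a was the one called. Wnt9a (chromosome 11, 59306849 to 59333552) is a ligand best known from joint formation. Its signal was 78.4, 85.2 and 106 in the LIF-free arrays (replicates 1, 2 and 3), against 39, 40.5 and 24.5 in the LIF arrays. With lithium it was 77.7, 81.7 and 69.3 in LIF-free plus lithium, against 38.6, 32.8 and 33.5 in LIF plus lithium arrays. The groups did not overlap in either comparison, and every LIF-free value was above every value with LIF. Wnt9a rose by 1.4 ± 0.23 on the log2 scale without lithium (SE, n = 3 arrays per group, limma adjusted p = 0.00349) and by 1.13 ± 0.23 with lithium (adjusted p = 0.00852). Both calls remained with any 1 array left out (highest adjusted p 0.0196 and 0.0412). Its other probe set stayed close to background, between 0.889 and 12.9 on all 12 arrays, and was not tested.

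Wnt8a (chromosome 18, 34542327 to 34548061) is a ligand of the early streak. Its signal was 14.7, 17.3 and 18.2 in LIF-free arrays, against 9.73, 5.53 and 2.81 in LIF arrays. With lithium it was 4.33, 9.33 and 14.3 in LIF-free plus lithium, against 7.1, 5.03 and 2.88 in LIF plus lithium arrays. The LIF-free arrays were thus the highest of the 4 conditions with no overlap with any other, but all values lay near the limit for testing. The log2 change on withdrawal was 1.64 ± 0.63 without lithium (adjusted p = 0.125; 95% interval 0.28 to 3.01 before adjustment) and 0.83 ± 0.63 with lithium (adjusted p = 0.444), and neither passed. Among the alternatives, the adjusted p without lithium ranged from 0.0198 with array weights, where it passed (log2 change 1.59), to 0.557 without replicate 2.

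Wnt3 (chromosome 11, 103774175 to 103818021), the ligand that starts gastrulation in the mouse, could not be read from these arrays. Its only probe set is of the _x_at kind, which can bind related sequences. Its signals were 0.787, 11.5 and 5.8 in LIF-free plus lithium, 0.733, 8.09 and 0.844 in LIF-free, 6.11, 0.353 and 0.687 in LIF plus lithium, and 6.55, 0.447 and 0.198 in LIF arrays. All but 2 of the 12 values were under the limit of 7.52, the groups overlapped, and no difference between conditions was detectable at this brightness.

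Rspo3 (chromosome 10, 29453106 to 29535867), the R-spondin, had the largest log2 changes of the 9 tested genes in both withdrawals. Its signal was 148, 100.3 and 60 in LIF-free arrays, against 42.9, 3.5 and 5.03 in LIF arrays. With lithium it was 126, 96 and 55 in LIF-free plus lithium, against 17.1, 3.23 and 1.19 in LIF plus lithium arrays. Groups did not overlap in either comparison; within each condition with LIF, replicate 1 was the highest, and the other 4 arrays with LIF were under the limit for testing. Rspo3 rose by 3.40 ± 0.96 on the log2 scale without lithium (adjusted p = 0.0423, and 0.000797 once a term for the replicate number was added) and by 4.44 ± 0.96 with lithium (adjusted p = 0.0104). Because these folds rest on values near background, they shrank to 1.97 and 2.23 with 16 signal units added before the log. The call without lithium ended when any of 9 of the 12 arrays was left out, those being LIF replicates 2 and 3, LIF plus lithium replicate 2, and all 3 replicates of LIF-free and of LIF-free plus lithium (highest adjusted p 0.162, without LIF replicate 2). It also ended with no filter on dim probe sets (adjusted p = 0.0644), without the intensity trend (0.0841) and in a fit of only the arrays compared (0.0568). The call with lithium ended without LIF plus lithium replicate 3 (adjusted p = 0.0532). The second probe set of Rspo3 lay between 0.338 and 10.2 and was not tested.

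The Frizzled receptors moved in 3 ways. Fzd2 (chromosome 11, 102604431 to 102608058), a receptor used by Wnt5a and by ligands of the beta-catenin branch, was higher without LIF. Its brightest probe set read 163, 251 and 252 in LIF-free arrays, against 106, 58.5 and 72.7 in LIF arrays. With lithium it read 171, 256 and 216 in LIF-free plus lithium, against 75.6, 68.9 and 37.2 in LIF plus lithium arrays. No value with LIF reached any value without it. Fzd2 rose by 1.51 ± 0.30 on the log2 scale without lithium (adjusted p = 0.0088) and by 1.87 ± 0.30 with lithium (adjusted p = 0.0024), and both calls remained with any 1 array left out (highest adjusted p 0.047 and 0.016). The second probe set gave 1.57 (adjusted p = 0.024) and 1.84 (adjusted p = 0.00905). Its call without lithium ended in 4 of 12 omissions (highest adjusted p 0.0959). The third gave 1.16 (adjusted p = 0.113) and 1.51 (adjusted p = 0.0378). Its call with lithium ended in 5 of 12 omissions (highest adjusted p 0.155) and after median centring (adjusted p = 0.127). The 3 probe sets thus pointed the same way, with the third missing the threshold without lithium; its LIF replicate 1, at 84.1, was within the LIF-free range of 74.2 to 109.

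Fzd5 (chromosome 1, 64730558 to 64737750), a receptor of yolk sac and eye development, was the only one of the 9 tested genes called lower. Its brightest probe set read 103, 125 and 103 in LIF-free arrays, against 151, 226 and 199 in LIF arrays. With lithium it read 74.8, 99.3 and 83.3 in LIF-free plus lithium, against 148, 279 and 308 in LIF plus lithium arrays. The groups did not overlap in either comparison, and replicate 1 was the lowest value in both conditions with LIF. Its log2 change was -1.45 ± 0.26 with lithium (adjusted p = 0.00362), a fall, and -0.79 ± 0.26 without lithium (adjusted p = 0.0722), which missed the threshold and passed in the fit with a replicate block (adjusted p = 0.00752). The other Fzd5 probe set read 52, 47.2 and 58.3 in LIF-free arrays, against 111, 176 and 173 in LIF arrays. It read 40.7, 43.6 and 58.6 in LIF-free plus lithium, against 126, 150 and 155 in LIF plus lithium arrays. This set fell in both comparisons, by 1.52 on the log2 scale without lithium (adjusted p = 0.00203) and by 1.61 with lithium (adjusted p = 0.00118), and its calls remained with any 1 array left out (highest adjusted p 0.0145 and 0.00867). In the reported fit, whether Fzd5 passed without lithium depended on the probe set read. With the block, both sets passed (adjusted p = 0.000106 for the less bright one). The brightest set also passed with array weights (adjusted p = 0.00309), in some omissions of 1 array (lowest adjusted p 0.0225) and without replicate 1 (0.0191).

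Fzd7 (chromosome 1, 59482147 to 59486955), a Frizzled studied in pluripotent cells, kept a similar signal in all 4 conditions. It read 343, 580.4 and 559.8 in LIF-free plus lithium, 389, 558 and 469.8 in LIF-free, 412, 533 and 450.4 in LIF plus lithium, and 411, 429 and 449.8 in LIF arrays. All 4 groups overlapped. The log2 change on withdrawal was 0.12 without lithium (adjusted p = 0.765, 95% interval -0.31 to 0.55) and 0.06 with lithium (adjusted p = 0.891, interval -0.37 to 0.49). Its second probe set was dim (1.32 to 30.4) and its intervals were too wide to add to this.

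The paralogous receptor kinases differed in these arrays. Ror1 (chromosome 4, 100095791 to 100444806) read 70.2, 77.6 and 57.2 in LIF-free arrays, against 39.8, 13.7 and 10.7 in LIF arrays. With lithium it read 60.9, 86.6 and 67.3 in LIF-free plus lithium, against 19.6, 16.3 and 9.38 in LIF plus lithium arrays. Groups did not overlap, and as in Rspo3, replicate 1 was the highest array in each condition with LIF. Ror1 rose by 1.91 ± 0.43 on the log2 scale without lithium (adjusted p = 0.0169; 0.00205 with the replicate number as a block) and by 2.30 ± 0.43 with lithium (adjusted p = 0.00531). The call without lithium ended without LIF replicate 2 (adjusted p = 0.0745, the highest), LIF replicate 3, LIF-free replicate 1 or LIF-free replicate 2, and in a fit of only the arrays compared (adjusted p = 0.0557). The other 2 Ror1 probe sets were dim, between 1.23 and 15.8, and were not tested.

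Ror2 (chromosome 13, 53109317 to 53286124), which shares with Ror1 the role of Wnt5a receptor, read 86.6, 84.9 and 93.1 in LIF-free arrays, against 73.5, 66 and 71 in LIF arrays. With lithium it read 111, 89.1 and 87.9 in LIF-free plus lithium, against 72, 75.3 and 105 in LIF plus lithium arrays. The first pair of groups did not overlap and the second did. Neither difference passed: the log2 change was 0.33 ± 0.19 without lithium (adjusted p = 0.307, interval -0.07 to 0.73) and 0.21 ± 0.19 with lithium (adjusted p = 0.532, interval -0.20 to 0.61). The second Ror2 probe set followed the replicate number and not the medium. It read 47.6, 44.3, 40.2 and 46.2 in replicate 1 of LIF-free plus lithium, LIF-free, LIF plus lithium and LIF, and no more than 17.1 in any of the other 8 arrays. Its log2 change on withdrawal was -0.56 without lithium and 0.01 with it, each with a standard error of 1.0.

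Dact1 (chromosome 12, 71309884 to 71320107), which binds Dishevelled and can restrain or promote its signal, had 1 probe set. It read 109, 85.7 and 80.4 in LIF-free arrays, against 46.3, 26.8 and 25.4 in LIF arrays. With lithium it read 86.4, 73.6 and 68.7 in LIF-free plus lithium, against 30.1, 28.9 and 18.9 in LIF plus lithium arrays. The lowest value without LIF was well above the highest with it in both comparisons. Dact1 rose by 1.53 ± 0.28 on the log2 scale without lithium (adjusted p = 0.00561) and by 1.58 ± 0.28 with lithium (adjusted p = 0.00364), with both calls kept when any 1 array was left out (highest adjusted p 0.0312 and 0.0218).

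**Figure D2:**
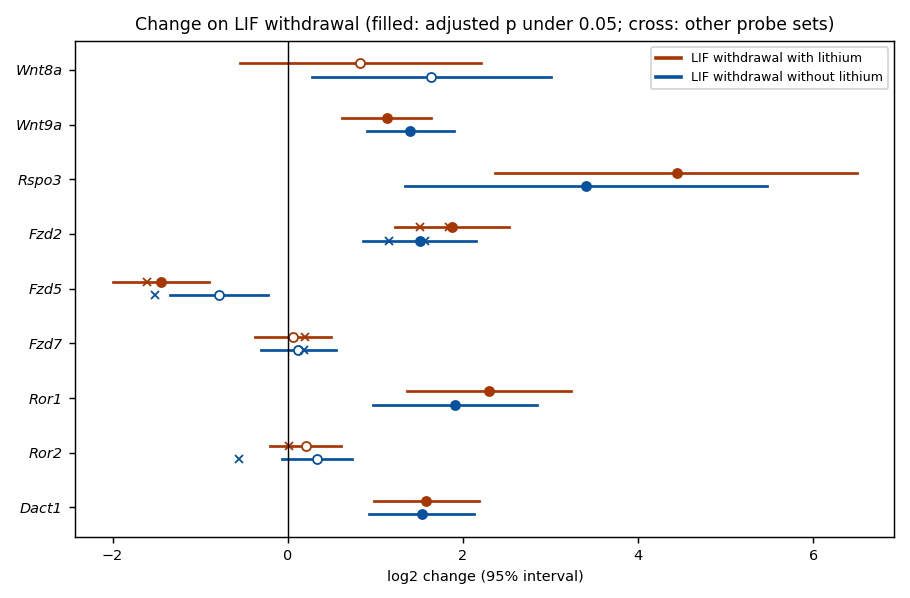
Log2 change on LIF withdrawal with and without lithium for the 9 tested genes; circles are the brightest probe set with its 95% interval (filled where the adjusted p is under 0.05, open otherwise) and crosses are other tested probe sets. Wnt9a, Rspo3, Fzd2, Ror1 and Dact1 lie right of 0 in both comparisons, Fzd5 lies left, and Fzd7 and Ror2 are near 0.

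The withdrawal comparisons with and without lithium share no array. Differences between arrays of equal replicate number are given for both. With lithium the pairing is less sure. There the deviations of same-numbered arrays correlated with 0.451, 0.097 and 0.379 in replicates 1, 2 and 3, and 0.1 was required of each. For the 5 genes called without lithium, replicate 1 gave the smallest difference in 5 of 5; among all 2515 called probe sets it did so in 65.0%. With lithium it did so in 5 of 6, against 43.1% of 3368. For Ror1 the differences were 0.82, 2.50 and 2.42 on the log2 scale in replicates 1, 2 and 3 without lithium and 1.64, 2.41 and 2.84 with it. For Rspo3 they were 1.79, 4.84 and 3.58 without lithium and 2.88, 4.89 and 5.53 with it. Every replicate of both genes moved in the same direction, and the size in replicate 1 was the one that stood apart. Without replicate 1 in all 4 conditions, 6 of the 9 genes were called in each comparison, and 2923 and 2465 of all 27022 probe sets. Without replicate 2 in all 4, which leaves replicates 1 and 3 and 4 residual degrees of freedom, limma called 0 of the 9 genes and 0 probe sets at all in either comparison, with 4 and 6 of the 9 genes, and 3198 and 3636 probe sets, at an unadjusted p under 0.05. Without replicate 3, 0 and 4 of the 9 were called, with 5 and 6 at an unadjusted p under 0.05. Over all probe sets, that fit called 741 and 1912, with 5203 and 6649 at an unadjusted p under 0.05. With single arrays left out, the 5 calls without lithium became 3 without LIF replicate 2, LIF replicate 3, LIF-free replicate 1 or LIF-free replicate 2.

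**Figure D3:**
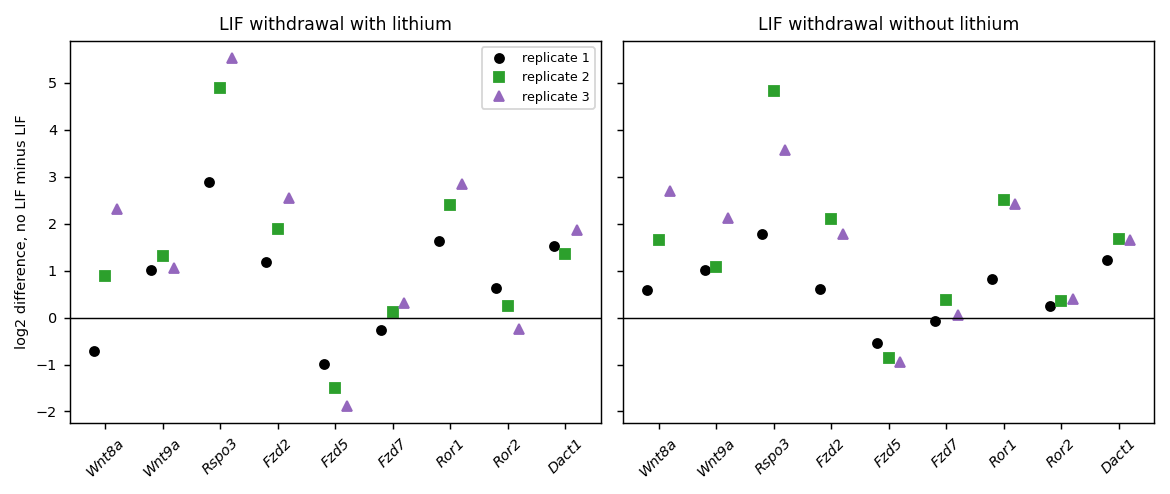
Log2 difference between arrays of the same replicate number, without LIF minus with LIF, in cultures with lithium (left) and without lithium (right); circles, squares and triangles are replicates 1, 2 and 3. In Wnt8a, Wnt9a, Rspo3, Fzd2, Fzd5 and Ror1 the circle lies closest to 0 in both panels.

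Lithium gave no call in any of the 9 genes. In LIF plus lithium against LIF cultures, limma called 0 of them (0.00% of all probe sets were called in either direction), with 0 at an unadjusted p under 0.05, and over all probe sets 749 (2.77%) had an unadjusted p under 0.05. In LIF-free plus lithium against LIF-free cultures it also called 0 (0.00% of all in either direction), with 0 at an unadjusted p under 0.05 and 347 (1.28%) over all probe sets. Log2 changes of the 9 genes ran between -1.17 (Rspo3) and 0.3 (Fzd5) with LIF and between -1.0 (Wnt8a) and 0.12 (Ror2) without it. Half-widths of the 95% intervals ran from 0.40 to 2.07, so the bound on a lithium effect differed widely between genes. For Fzd7 the interval was -0.32 to 0.54 with LIF and -0.39 to 0.47 without. For Wnt9a it was -0.46 to 0.55 and -0.73 to 0.27. For Rspo3 it was -3.24 to 0.89 and -2.21 to 1.93, which leaves room for large changes on the pooled spread. That spread includes the dim arrays with LIF. The SD of Rspo3 log2 signal was 1.95 in LIF and in LIF plus lithium arrays. It was 0.65 in LIF-free and 0.61 in LIF-free plus lithium arrays. Without LIF, arrays of the same replicate number differed with lithium by -0.23, -0.06 and -0.13 on the log2 scale.

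In LIF-free cultures, 2 of the 9 genes had all lithium values below all values without lithium and 0 above, where 2.42% and 3.59% of all probe sets did. With LIF, 0 of the 9 were separated in either direction (5.08% of all probe sets lower and 1.64% higher). Wnt8a read 4.33, 9.33 and 14.3 in LIF-free plus lithium, against 14.7, 17.3 and 18.2 in LIF-free arrays (log2 change -1.0 ± 0.63, unadjusted p = 0.138, adjusted p = 1.0). Fzd5 read 74.8, 99.3 and 83.3 in LIF-free plus lithium, against 103, 125 and 103 in LIF-free arrays (log2 change -0.37 ± 0.26, unadjusted p = 0.174, adjusted p = 1.0). Neither passed, and the other Fzd5 probe set overlapped between these groups. The interaction, which asks whether the effect of lithium differed without and with LIF, was called for 0 of the 9 genes and 0.00% of all probe sets in either direction, with 0 and 666 (2.46%) at an unadjusted p under 0.05. Its smallest unadjusted p among the 9 was that of Fzd5 (log2 difference -0.67 ± 0.36, unadjusted p = 0.0872, adjusted p = 0.999, interval -1.45 to 0.11).

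**Figure D4:**
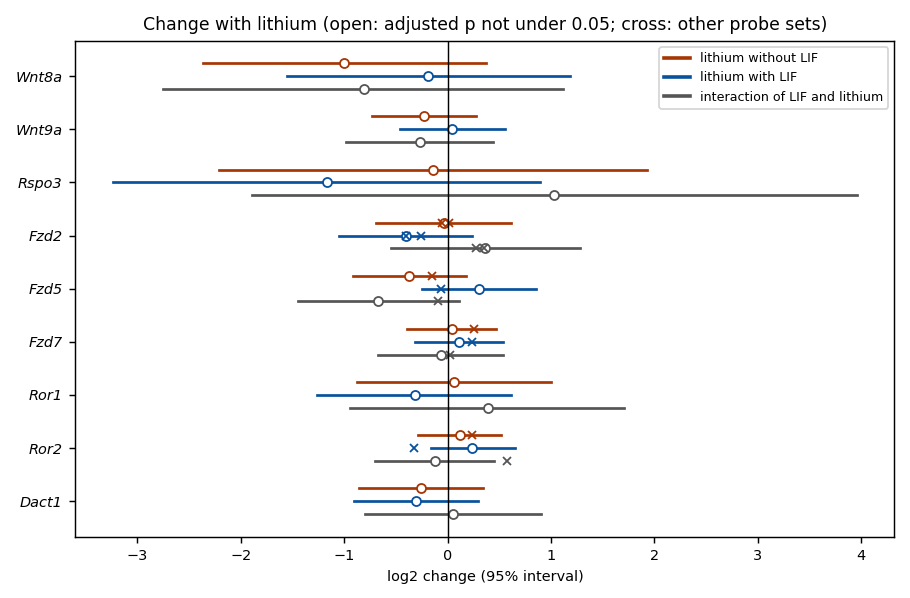
Log2 change with lithium without LIF and with LIF, and their difference (interaction), for the 9 tested genes; circles with 95% intervals are the brightest probe set and crosses the other tested sets. All circles are open (adjusted p not under 0.05), and the intervals of Rspo3 and Wnt8a are the widest.

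The order of mean signal followed LIF for the called genes. Fzd2 averaged 214 ± 42.5 in LIF-free plus lithium and 222 ± 51.2 in LIF-free arrays (SD, n = 3 each), neighbours that did not differ beyond their spread, and 60.6 ± 20.5 in LIF plus lithium and 79 ± 24.3 in LIF arrays, which did not either. Dact1 averaged 76.3 ± 9.13, 91.7 ± 15.1, 26 ± 6.12 and 32.8 ± 11.7 in the same order. Fzd5 averaged 85.8 ± 12.4, 110.4 ± 12.6, 245 ± 85 and 192 ± 38.2, with the same split turned round. The genes whose log2 signal ran most like that of a gene described here over the 12 arrays were sought among 12200 named genes, as a description without a test, since all arrays share the LIF split. For Fzd2 they were Tox3 (r = 0.989), Rcbtb2 (r = 0.981) and Cdon (r = 0.98). For Dact1 they were Cd24a (r = 0.984), Greb1l (r = 0.983) and Cmtm3 (r = 0.983), and for Rspo3 they were Cdk14 (r = 0.991), Bach2 (r = 0.987) and Cdh2 (r = 0.985). For Ror2, with its small differences, the likeness was lower (Sdf4, r = 0.913; Ndrg1, r = 0.895; Dpcd, r = 0.878); none is given for Wnt3, which lay mostly under the limit. Among the genes described, Dact1 and Ror1 correlated with r = 0.97, Ror1 and Rspo3 with 0.96, and Fzd5 and Rspo3 with -0.93.

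Other genes of the ligand and receptor families were taken from lists of the whole families. The background for each list is the share of all probe sets called higher and lower. It was 5.40% and 3.91% without lithium and 7.53% and 4.93% with it. With the block it was 10.0% and 9.42% without lithium and 12.8% and 9.19% with it. Of the 19 Wnt ligands, 9 were bright enough to be tested, and besides Wnt9a withdrawal called Wnt6 without lithium and Wnt4, Wnt5a, Wnt6, Wnt7a and Wnt7b with it, 0 of them lower. With the replicate number as a block, 4 of the 9 ligands were called without lithium. Wnt6 averaged 79.1 ± 14.2 in LIF-free and 39.8 ± 8.4 in LIF arrays (log2 change 1.0, adjusted p = 0.0219), a call that ended without LIF replicate 2, LIF-free replicate 1 or LIF-free replicate 2 (highest adjusted p 0.103). Wnt5a, singled out after its values were seen because it is the ligand of the Ror receptors, averaged 82.8 ± 54.3 in LIF-free plus lithium and 8.46 ± 3.32 in LIF plus lithium arrays (log2 change 2.99, adjusted p = 0.0255; highest adjusted p 0.111 with an array left out, past the threshold without LIF plus lithium replicate 2 or 3 or LIF-free plus lithium replicate 1 or 2). Without lithium its log2 change was 2.34 (adjusted p = 0.0787; 0.0145 with the block). Wnt4, a ligand of urogenital development, averaged 122 ± 15.8 in LIF-free plus lithium and 40.1 ± 17.2 in LIF plus lithium arrays (log2 change 1.70, adjusted p = 0.00269).

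Of the 10 Frizzled genes, 8 were tested: 1 was called higher and 0 lower without lithium (3 and 1 with the block). With lithium, 2 were called higher and 1 lower (3 and 1 with the block). In the fit without the block, the one beyond those already described was Fzd1. It averaged 46.3 ± 12.9 in LIF-free plus lithium and 17 ± 6.55 in LIF plus lithium arrays (log2 change 1.48, adjusted p = 0.0247). That call ended without LIF plus lithium replicate 3 or LIF-free plus lithium replicate 1 or 2 (highest adjusted p 0.115). All 6 listed Ror and other co-receptor genes were tested, and besides Ror1 the call was for Ryk, a Wnt-binding receptor without kinase activity. Ryk averaged 442 ± 45.1 in LIF-free and 301 ± 12.2 in LIF arrays (log2 change 0.55, adjusted p = 0.034), and 447 ± 55.7 in LIF-free plus lithium and 282 ± 43.3 in LIF plus lithium arrays (log2 change 0.67, adjusted p = 0.0112). With an array left out, the adjusted p of Ryk reached 0.114 without lithium (LIF-free replicate 3) and 0.0599 with it (LIF-free plus lithium replicate 1), and the calls ended in 6 and 2 of 12 omissions.

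Of the 9 R-spondin, Lgr and ligase genes, 7 were tested, with Rspo3 the one call without lithium. With lithium, Lgr5, an R-spondin receptor (19.3 ± 11 in LIF-free plus lithium and 3.87 ± 2.29 in LIF plus lithium arrays, the second under the limit of 7.52, so that no exact fold is given; adjusted p = 0.0379), and Znrf3, the ligase it holds back (log2 change 0.73, adjusted p = 0.0446), rose too; with 1 array left out these calls ended in 6 and 10 of 12 omissions (highest adjusted p 0.157 and 0.19). With the replicate number as a block, 4 of the 7 R-spondin, Lgr and ligase genes were called higher with lithium. Of the 6 Dishevelled and Dact genes, 5 were tested and Dact1 was the one called, in both comparisons. The median log2 change was 1.08 for ligands, 0.29 for Frizzled, 0.25 for co-receptors, 0.51 for the R-spondin group and -0.32 for Dishevelled and Dact genes without lithium, and 1.13, 0.72, 0.33, 0.73 and -0.10 with it, where the medians of all tested probe sets were -0.07 and 0.11.

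**Figure D5:**
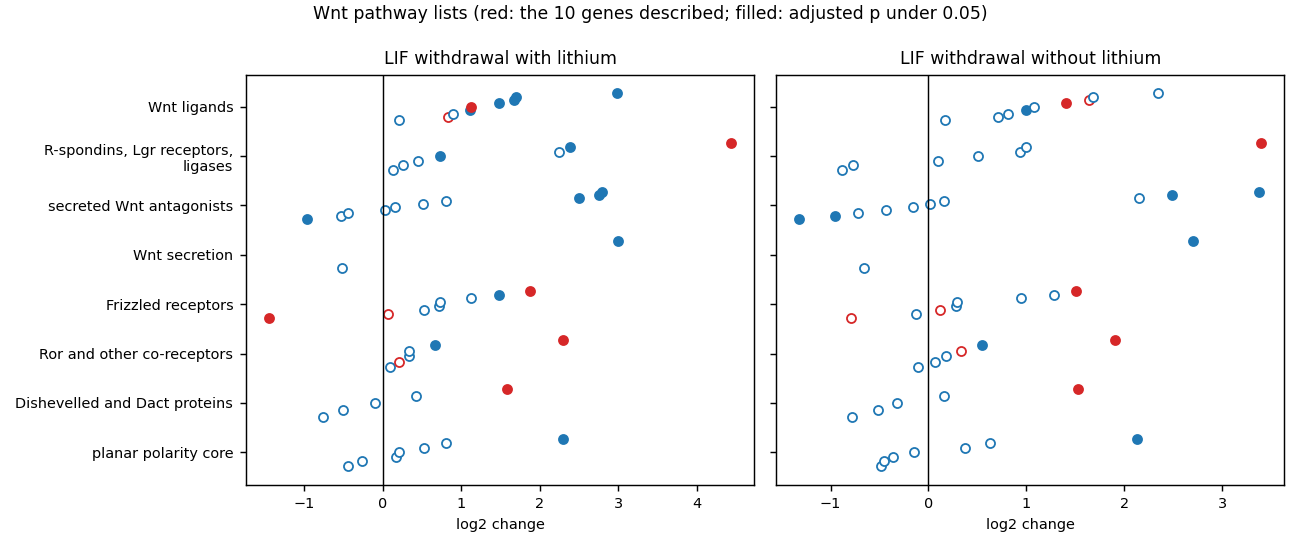
Log2 change on LIF withdrawal with lithium (left) and without lithium (right) of every tested gene in 8 lists of the Wnt pathway; each circle is a gene, red for the genes described here, filled where the adjusted p is under 0.05. Filled circles lie mostly right of 0, with Fzd5 (with lithium) and secreted antagonists among those on the left.

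Several of these genes are also made by mesoderm and by fibroblasts, so the markers of such cells are given beside them. In a bulk sample, fewer cells of a type and less RNA per cell cannot be told apart. Of 10 mesoderm and streak markers, all tested, 2 were called higher without lithium (6 with the block) and 5 with it (7 with the block). Over all probe sets, 5.40% were called higher and 3.91% lower without lithium, and 7.53% and 4.93% with it. With the block these shares were 10.0% and 9.42% without lithium and 12.8% and 9.19% with it. Marker counts with and without the block thus have different backgrounds. Their summed signal was 281 to 828 in LIF-free and 161 to 361 in LIF arrays, and 324 to 761 in LIF-free plus lithium and 158 to 256 in LIF plus lithium arrays. Of 10 fibroblast and feeder markers, 8 were tested, with 1 called higher without lithium (3 higher and 1 lower with the block) and 3 with it (5 with the block). Their summed signal was 3158 to 5783 in LIF-free and 2137 to 3389 in LIF arrays, and 3112 to 5318 in LIF-free plus lithium and 2051 to 3003 in LIF plus lithium arrays. Most of it came from 2 genes. Fibronectin (Fn1) was at 1729 ± 531 in LIF-free and 1575 ± 46.2 in LIF arrays (log2 change 0.08, adjusted p = 0.894), and vimentin (Vim) at 2525 ± 777 in LIF-free and 1036 ± 623 in LIF arrays (called, though not without LIF replicate 2 or 3 or LIF-free replicate 1 or 2), while Thy1, a surface marker of fibroblasts, was at 12.7 ± 2.8 in LIF-free and 27.9 ± 7.49 in LIF arrays (log2 change -1.13, adjusted p = 0.0636) and the proteoglycans Dcn and Lum were too dim to be tested. With lithium the called fibroblast markers were Vim, Col3a1 (limma adjusted p = 0.00939) and Col6a1 (0.00725), and both collagen calls remained with any 1 array left out. Col3a1 was at 40.5 ± 17.9 in LIF-free plus lithium and 5.72 ± 3.06 in LIF plus lithium arrays, the second under 7.52. Col1a1 and Postn had higher means without LIF in both comparisons and passed only with the block. Of 10 extraembryonic endoderm markers, 8 were tested, with 1 higher and 1 lower without lithium (2 higher and 2 lower with the block). With lithium, 0 were higher and 2 lower (2 higher and 2 lower with the block), and Afp was under 7.52 on every array. The part of other cell types in the changes of the Wnt genes was not tested.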

How the data were processed

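Mouse D3 embryonic stem cell RNA was read on 12 Affymetrix arrays, 3 for each of 4 conditions. The authors deposited one linear intensity for each probe set, the MAS5 signal, per the submitters' processing notes; its version, settings and detection calls are not given in the sources used here. The trimmed mean of each array (2% off each end) was 100.001, which shows one common scaling target. The number of arrays limits the precision.

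The 64 Affymetrix control probe sets were left out, signals below a floor of 1 were raised to it (0.146% of tested values), and log2 was taken. Probe sets above the 40th percentile of mean log2 signal (27022 of 45037) were tested. Symbols came from the platform annotation (34945 probe sets with 1 symbol, 932 with several, 9160 unnamed here); 34741 gene IDs matched the RefSeq table and 0 symbols changed. limma 3.58.1 (R 4.3.3) fitted 1 mean per condition over the 12 arrays together, using lmFit and eBayes with an intensity trend, and contrasts were two-sided, adjusted by Benjamini-Hochberg within a comparison at a threshold of 0.05. The procedure was tested on simulated data. With 3 arrays against 3, 0.1 is the smallest two-sided p of an exact permutation, so each call rests on the pooled spread.

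Named genes were the 10 themselves, at most 4 called genes per list by smallest p, Axin2, Dkk1 and Wls, and for Fzd2, Ror2, Dact1 and Rspo3 the 3 genes with the highest correlation (Wnt3, also in the rule, was too dim). Wnt5a falls outside this rule, as does Wnt7b if Wnt9a is counted among the 4. Fn1, Thy1, Col1a1, Postn, Dcn, Lum and Afp were named without a call in the reported fit. The genes and lists were chosen with earlier results of these data known. Promoter sequences are RefSeq's (GRCm38.p6). Plots used Python 3.11.15 and matplotlib 3.10.9.

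Equal replicate numbers come from the labels. Residuals from condition means correlated for replicates 1, 2 and 3 with 0.438, 0.137 and 0.339 between LIF-free and LIF arrays, so the numbers pair these arrays (every correlation over 0.1), as they do for lithium with LIF (0.499, 0.139, 0.321) and lithium without LIF (0.462, 0.111, 0.3). LIF-free plus lithium and LIF plus lithium gave 0.451, 0.097 and 0.379 and were not counted as paired, because replicate 2 fell just under 0.1. Replicates 1 and 3 correlated at least as strongly here as between LIF-free and LIF arrays, so the difference from the paired comparisons is small. The values reported come from the fit without a block. Counts of called genes with the block stand beside them where they differ, and blocked p-values are given for some genes only. Alternatives were quantile normalisation, median centring, 16 added before the log, all probe sets kept, the dim-signal limit moved to the 60th percentile, a replicate block, no trend, array weights, only the arrays compared, other probe sets and leaving out arrays. Leaving out a replicate number in all conditions was chosen after seeing the data.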

Additional observations from a re-analysis of the deposited data

How the results depend on the processing

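None of the calls of the 9 genes changed sign in any alternative, and 5 of 5 remained without lithium with the replicate number as a block, which added Fzd5; it changed no other call of theirs. Over all probe sets, the count called without lithium (2515) was 1560 after median centring, 5260 with the replicate block, 1674 without the intensity trend, 7870 with array weights and 1168 from only the arrays compared. With lithium (3368) it was 1490 after median centring, 5938 with the replicate block and 6887 with array weights. Of the 9 genes, 3 were called without lithium from only the arrays compared, where 5 were called from all; the calls that ended were Ror1 and Rspo3. Rspo3 also ended with no filter and without the intensity trend (4 called each) and was not tested at the 60th percentile (4 called), and array weights added Wnt8a and Fzd5 (7 called). With arrays left out, singly or by replicate number, called probe sets ranged from 0 to 3950 without lithium, 0 to 4311 with lithium and 0 to 2 for lithium with LIF, and called genes from 0 to 6 in either withdrawal; in the withdrawals the zeros came without replicate 2 (and, for the genes without lithium, replicate 3), while the same number of arrays without replicate 1 gave 2923 and 2465 probe sets and 6 genes each; the cause was not tested. Signs turned 70 times, over 22 log2 changes, 0 of them called as reported or under the alternative. On withdrawal, they were Ror2 without lithium by its other probe set (-0.56), and Fzd7 (-0.29) and Ror2 (-0.14) with lithium after median centring. For lithium with LIF they were Wnt8a (0.41 quantile, 0.18 centred), Wnt9a (-0.21 array weights), Ror1 (0.05 quantile, 0.05 centred, 0.00 array weights), Dact1 (0.06 centred), and other probe sets of Fzd5 (-0.06) and Ror2 (-0.33). For lithium without LIF they were Fzd7 (-0.12), Ror1 (-0.10) and Ror2 (-0.05) after centring and another Fzd2 probe set (0.01). In the interaction they were Wnt9a (0.04 array weights), Fzd2 (-0.17 centred, -0.01 array weights), Ror1 (-0.03 quantile, -0.15 centred), Dact1 (-0.20 quantile, -0.48 centred, -0.02 with 16 added, -0.17 array weights), and other probe sets of Fzd7 (0.02) and Ror2 (0.57). With arrays left out, log2 changes that turned ranged from -0.01 to 0.25 (Fzd7 without lithium), -0.08 to 0.3 (Fzd7 with lithium) and -0.01 to 0.44 (Ror2 with lithium); for lithium with LIF from -0.65 to 0.25 (Wnt8a), -0.19 to 0.22 (Wnt9a) and -0.7 to 0.25 (Ror1); for lithium without LIF from -0.25 to 0.11 (Fzd2), -0.09 to 0.29 (Fzd7), -0.08 to 0.2 (Ror1), -0.01 to 0.22 (Ror2) and -0.48 to 0.19 (Rspo3); and in the interaction from -0.53 to 0.12 (Wnt9a), -0.22 to 0.18 (Fzd7), -0.19 to 0.76 (Ror1), -0.38 to 0.14 (Ror2), -0.23 to 0.24 (Dact1) and -0.08 to 2.08 (Rspo3). Signals near 7.52 limit Wnt3, Wnt8a and Rspo3 in arrays with LIF. Fzd2's highest p under any 1 array left out, 0.047, was close to the threshold.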

Other observations

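Secreted antagonists, the Wnt export machinery and the polarity genes were listed as well. Of 10 tested antagonists, withdrawal without lithium called 2 higher and 2 lower (3 and 2 with the replicate number as a block), and withdrawal with lithium 3 higher and 1 lower. Dkk1, which blocks Lrp5 and Lrp6, averaged 209.7 ± 8.07 in LIF-free and 47.3 ± 40.6 in LIF arrays (limma log2 change 2.49, adjusted p = 0.00482), and 206 ± 51.9 in LIF-free plus lithium and 36.5 ± 9.12 in LIF plus lithium arrays (log2 change 2.50, adjusted p = 0.00364). Frzb, a secreted Frizzled-related protein, averaged 88.8 ± 19.7 in LIF-free and 10.8 ± 9.63 in LIF arrays (log2 change 3.38, adjusted p = 0.00227), and 69.6 ± 8.35 in LIF-free plus lithium and 11 ± 4.91 in LIF plus lithium arrays (log2 change 2.75, adjusted p = 0.00461). Sfrp1, of the same protein family, fell instead, to 71.5 ± 10.7 in LIF-free against 138 ± 16.6 in LIF arrays (log2 change -0.95, adjusted p = 0.0369) and to 66.5 ± 27.1 in LIF-free plus lithium against 126 ± 26.5 in LIF plus lithium arrays (log2 change -0.97, adjusted p = 0.0284). Sfrp4, another of that family, was at 23.4 ± 4.87 in LIF-free and 58.9 ± 15.5 in LIF arrays (log2 change -1.32, adjusted p = 0.0234; 4 omissions ended the call, highest adjusted p 0.0865), and did not pass with lithium (log2 change -0.53, adjusted p = 0.327). Cer1, an inhibitor of Wnt, Nodal and BMP ligands, was called higher with lithium, at 20.1 ± 6.85 in LIF-free plus lithium and 3.57 ± 3.03 in LIF plus lithium arrays, the second under the limit of 7.52 (adjusted p = 0.0302; 5 omissions ended the call, highest 0.125). The calls of Dkk1 and Frzb remained with any 1 of the 12 arrays left out, while those of Sfrp1 ended in 7 and 4 omissions (highest adjusted p 0.117 without LIF-free replicate 3 and 0.132 without LIF plus lithium replicate 3).

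Wls, the carrier that brings Wnt proteins to the cell surface, averaged 652 ± 74.3 in LIF-free and 127 ± 110.3 in LIF arrays (log2 change 2.70 ± 0.49, adjusted p = 0.00572), and 673 ± 73.1 in LIF-free plus lithium and 95.4 ± 61.2 in LIF plus lithium arrays (log2 change 3.0 ± 0.49, adjusted p = 0.00271); both calls remained with any 1 array left out. Of 7 polarity genes, all tested, Prickle1, a cytoplasmic polarity protein, was the one called: 240 ± 55.5 in LIF-free and 65.3 ± 50.8 in LIF arrays (log2 change 2.13, adjusted p = 0.0164, a call that ended without LIF replicate 2 or 3 or LIF-free replicate 1 or 2), and 259 ± 48.1 in LIF-free plus lithium and 59 ± 38.1 in LIF plus lithium arrays (log2 change 2.30, adjusted p = 0.00891). Among beta-catenin targets, 2 of 8 tested were called higher without lithium (6 with the block) and 4 with it (6 with the block), 0 lower. Axin2, a feedback scaffold, averaged 61.1 ± 10.5 in LIF-free and 23.1 ± 8.76 in LIF arrays (log2 change 1.45, adjusted p = 0.03; 5 omissions ended the call, highest adjusted p 0.11 without LIF replicate 2), and 75.9 ± 29.2 in LIF-free plus lithium and 24 ± 10.5 in LIF plus lithium arrays (log2 change 1.68, adjusted p = 0.0125; 2 omissions, highest 0.066). Tnfrsf19, a receptor of the TNF family, averaged 186 ± 7.58 in LIF-free and 41.6 ± 38.2 in LIF arrays (log2 change 2.56, adjusted p = 0.00991), and 201 ± 5.2 in LIF-free plus lithium and 31.6 ± 16.2 in LIF plus lithium arrays (log2 change 2.83, adjusted p = 0.00466); both calls remained with any 1 array left out. Over the 45 tested genes of the 8 pathway lists (beta-catenin targets apart) that are not among the 10, 6 were higher and 2 lower without lithium (11 and 2 with the block) and 14 and 1 with it (16 and 1 with the block). Over all probe sets, 5.40% were called higher without lithium (10.0% with the block) and 7.53% with it (12.8% with the block), so counts with and without the block have different backgrounds. The same 45 genes had 0 calls for lithium itself in either medium, where limma called 0 probe sets in all and 749 with LIF and 347 without had an unadjusted p under 0.05.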
